A study of Mus musculus with 17 samples.

Results

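The nuclear-encoded subunits of the mitochondrial respiratory chain were taken as the protein-coding genes whose symbols begin with Nduf or Uqcr, the genes Sdha to Sdhd, the Cox4 to Cox8 forms and the genes beginning with Atp5, kept where the mean over 17 mouse liver libraries reached 1 FPKM (fragments counted relative to transcript length and to the fragments mapped in the library). This gave 87 genes on 19 chromosomes out of 46073 rows: 44 of complex I, 4 of complex II, 8 of complex III, 14 of complex IV and 17 of complex V. The word subunits below stands for all 87 as chosen by symbol, and not every one need be part of a finished complex. Of those of complex I, 8 are assembly factors and not parts of it. The 6 other rows with a matching symbol lay below the limit and were all complex IV forms: Cox4i2, Cox6a2, Cox6b2, Cox7b2, Cox8b and Cox8c. Cox6b2 lay closest below the limit at a mean of 0.526 FPKM and Ndufa4l2 closest above it at 1.03 FPKM.

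The livers came from male C57BL/6 mice aged 11 to 12 weeks and were taken 24 h after an injection of saline or of acetaminophen (APAP, a painkiller that injures the liver at high dose). Mice were labelled Nampt +/+ (written WT here), Nampt +/- (Het) or Nampt OE (OE), Nampt being the enzyme that recycles nicotinamide to NAD, the cofactor whose reduced form feeds complex I. The labels do not say which promoter or cell type lies behind OE. The groups were WT saline (3 libraries), Het saline (2), OE saline (2), WT APAP (3), Het APAP (3) and OE APAP (2), all APAP at 200 mg/kg, plus 1 OE library at 300 mg/kg and 1 WT library whose saline is labelled IG. Some livers were perfused and others not, and the lane tags in the labels (L004 to L008) do not cross the groups evenly. All 3 WT APAP libraries carry L005, while no WT saline library does. The difference between WT saline and any APAP group can therefore not be told apart from a lane difference.

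The respiratory chain passes electrons from NADH (complex I) and succinate (complex II) through complexes III and IV to oxygen, and complex V uses the resulting proton gradient to make ATP. Core subunits of complex I carry its flavin and iron-sulfur centres, accessory subunits surround them, and assembly factors help to build the complex without remaining in it. In the liver, reactive metabolites of APAP form in pericentral hepatocytes, the cells around the central vein, and mitochondria are among their known targets.

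Summed FPKM per library ran from 466883 to 916006, and the 87 genes made up between 1.66% and 2.61% of it. Nampt stood at 15.3 to 18 FPKM in WT saline, 23 to 26 in Het saline and 22.4 to 27.2 in OE saline, so the libraries labelled Nampt +/- were not lower than WT under saline; Het and OE below stand for the labels. After APAP it was 10.9 to 16.7 in WT, 11.3 to 15.4 in Het and 18.5 to 36 in OE. Nothing in the labels says which libraries shared a litter or a day, and the p-values below measure only the spread between these libraries, which may be technical.

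In the 7 libraries of the 3 saline groups, the median subunit stood at 126 FPKM. Complex IV genes had the highest median, 324 FPKM, followed by complex V at 251, complex III at 223 and complex II at 145. Within complex I the core subunits had a median of 79.9 FPKM, the accessory subunits 104 and the assembly factors 12.4. The most abundant gene of each complex was Ndufb9 (309 FPKM) in complex I, Sdhd (172) in II, Uqcr11 (353) in III, Ndufa4 (643) in IV and Atp5b (764), the catalytic beta subunit of ATP synthase, in V. Levels varied little between saline libraries: the median coefficient of variation was 11.2%, and 18% among the assembly factors.

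Where the chain has alternative forms of a subunit, the liver expressed them unequally. Ndufa4, a complex IV subunit despite its name, had a saline mean of 643 FPKM, while its paralog Ndufa4l2 stood at 0.693. Cox7a2 stood at 231 FPKM, the related Cox7a2l at 94.4, and Cox7a1, the heart and muscle form, at 3.85. The 3 genes for subunit c of the ATP synthase ring, Atp5g1, Atp5g2 and Atp5g3, stood at 251, 77.4 and 347 FPKM. Another coding gene on the same strand overlaps 4 of the 87 genes (Ndufb2, Ndufb8, Ndufa13 and Cox4i1), and 11 rows of the table are annotated as pseudogenes with a matching symbol, so reads of such genes could be shared between rows.

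APAP was first compared with saline as the average of the responses in WT, Het and OE livers, with perfusion as a term in the fit. Lower expression was called for 38 of the 87 subunits and higher expression for 0, at a false discovery rate of 0.05 over 11101 genes. Lower calls made up 43.7% of the subunits and 13.3% of all genes tested. The median log2 difference of the subunits was -0.32, a fall of 19.9%, against -0.02 for all genes tested, and 83 of the 87 values lay below 0. Abundant genes in general were also lower: among the 1155 others averaging 50 FPKM or more, a limit set after the values were seen, the median was -0.24 and 33.4% were called lower.

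The calls rested on few libraries and on the scaling of the values. Without OE APAP 2 the count dropped to 2 (Ndufs7 and Ndufv3, with the median at -0.33). It was 19 without Het saline 1, 19 without OE saline 2, 21 without WT saline 3 and 22 without Het saline 2. After quantile normalisation 8 of the 87 subunits remained called lower, with a median of -0.11 and 63 values below 0. Lower calls made up 10.5% of all genes tested there, so the subunits no longer exceeded that share. The sign turned for 20 of the 87, none of them among the 38. With every library brought to the same summed FPKM, 3 were lower and 1 was higher. Lower calls then made up 5.3% of all genes, again no excess among the subunits. The subunit median was -0.19 while the median of all genes moved to 0.10. The sign turned for 5 subunits, none of the 38.

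**Figure D1:**
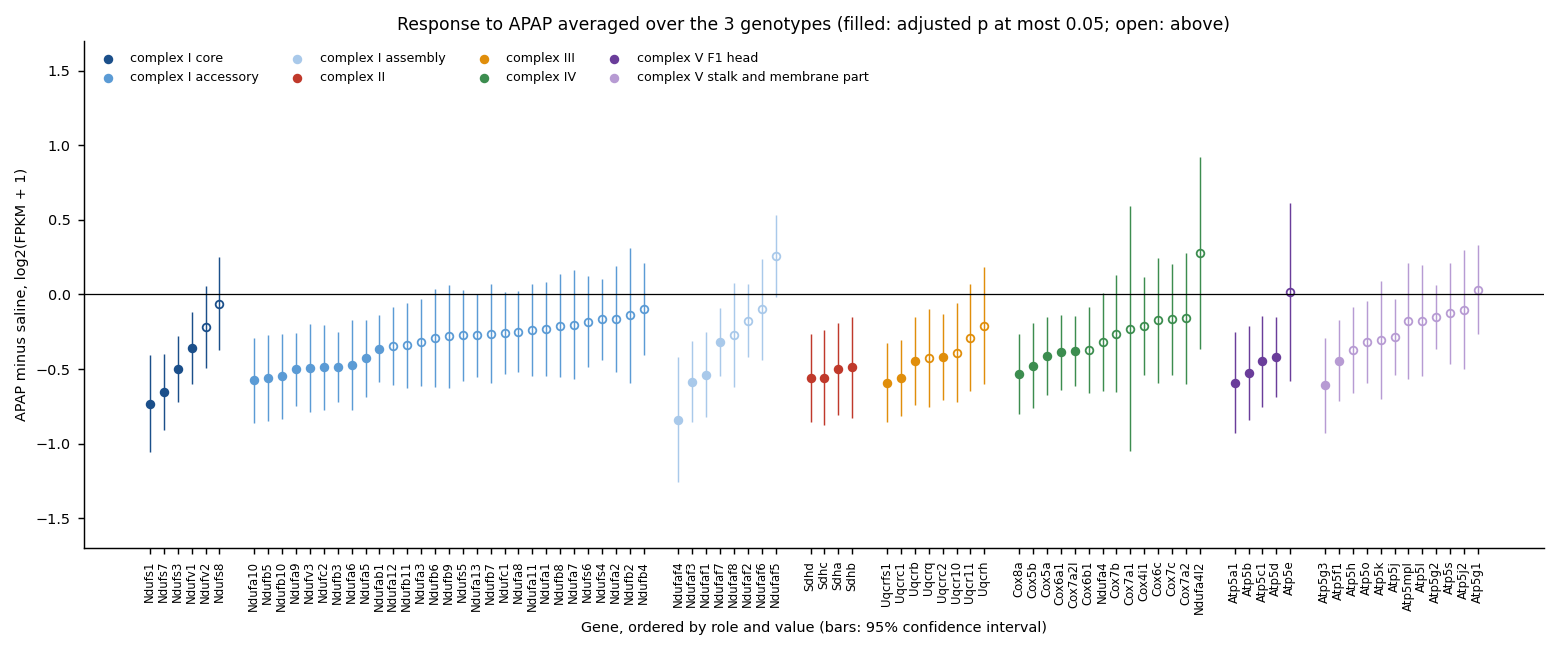
Log2 difference in FPKM + 1 (vertical axis) between APAP and saline, averaged over the 3 genotypes, for 86 of the 87 genes, ordered by role. Points are fitted values, bars are 95% confidence intervals and filled points have an adjusted p of at most 0.05; 37 points are filled, all below 0, and all 4 complex II genes are among them.

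Ordered by role, the calls were uneven. Of the 7 complex I core subunits 5 fell (median -0.37), of the 29 accessory subunits 10 (median -0.28) and of the 8 assembly factors 4 (median -0.30). All 4 complex II genes fell (median -0.53), as did 4 of 8 in complex III (median -0.43) and 5 of 14 in complex IV (median -0.29). In complex V, 4 of the 5 subunits of the F1 head, the part that makes ATP, fell (median -0.45), but 2 of the 12 subunits of its stalk and membrane part (median -0.23). Differences between these roles were not tested.

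Among the complex I core subunits, Ndufs1, which carries iron-sulfur clusters of the NADH-oxidising arm, had the largest difference. Ndufs1 (ENSMUSG00000025968, chr1:63143596-63176833, minus strand, GRCm38) was at 70.8, 69.9 and 74.0 FPKM in WT saline, 65.8 and 67.0 in Het saline and 64.1 and 64.3 in OE saline. After APAP it was at 45.9, 46.2 and 30.3 FPKM in WT, 37.2, 26.5 and 33.1 in Het and 67.2 and 42.8 in OE. Every WT and Het APAP library lay below every saline library, while OE APAP 1 lay within the saline range and OE APAP 2 below it. The averaged log2 difference was -0.73 (SE 0.15, limma adjusted p = 0.0050).

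Ndufs7, which holds the last iron-sulfur cluster before ubiquinone, had the smallest p of the 87. Ndufs7 (ENSMUSG00000020153, chr10:80249121-80256794, plus strand) was at 70.5, 58.1 and 59.8 FPKM in WT saline, 68.7 and 59.6 in Het saline and 64.6 and 51.3 in OE saline, and after APAP at 34.5, 37.2 and 35.4 in WT, 33.8, 27.8 and 23.0 in Het and 55.9 and 45.1 in OE. The WT and Het APAP libraries again lay below all saline libraries; OE APAP 1 lay within the saline range and OE APAP 2 between the saline range and the other APAP libraries. The averaged difference was -0.65 (SE 0.12, adjusted p = 0.0026), and Ndufs7 stayed called under quantile normalisation and equal summed FPKM. Ndufs3 fell by 0.50 (adjusted p = 0.0048) and Ndufv1, the flavin-binding subunit, by 0.36 (adjusted p = 0.035). Ndufv2 (-0.22, adjusted p = 0.24) and Ndufs8 (-0.06, adjusted p = 0.80) did not pass the test, and both turned positive under quantile normalisation (0.091 and 0.13).

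The assembly factor Ndufaf4 had the lowest averaged value of all, -0.84 (SE 0.19, adjusted p = 0.0089), but its saline levels were uneven: 21.1, 24.3 and 21.5 FPKM in WT, 27.7 and 35.2 in Het and 17.0 and 38.5 in OE. After APAP it was at 12.9, 13.8 and 14.4 FPKM in WT and 12.2, 17.9 and 12.1 in Het, below their own saline groups, and at 44.0 and 16.1 in OE. The high values of 38.5 and 44.0 came from libraries with lane tag L004, while the OE library at 300 mg/kg, of the same lane tag, stood at 19.7. In OE saline and OE APAP the L004 libraries were non-perfused and the L008 ones perfused. Perfusion and lane can therefore not be told apart there, and the fitted value of -0.84 includes the perfusion term. Mean FPKM of Ndufaf4 after APAP was 61.5% of saline in WT, 44.7% in Het and 108% in OE. Ndufaf3 (-0.58, adjusted p = 0.0064), Ndufaf1 (-0.54, adjusted p = 0.012) and Ndufaf7 (-0.32, adjusted p = 0.047) fell as well. Ndufaf5, the assembly factor that hydroxylates Ndufs7, had a positive value of 0.26 (adjusted p = 0.17).

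Accessory subunits with the smallest p were Ndufa9, at -0.50 (adjusted p = 0.0079), and Ndufb3, at -0.49 (adjusted p = 0.0079). None of the 29 accessory subunits had an averaged value above 0, and their values ran from -0.58 for Ndufa10 to -0.10 for Ndufb4, which turned to 0.15 under quantile normalisation and to 0.053 with equal summed FPKM.

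Complex II, succinate dehydrogenase, is the only complex of the chain that also works in the tricarboxylic acid cycle. Its iron-sulfur subunit Sdhb (ENSMUSG00000009863, chr4:140961203-140979193, plus strand) was at 177, 156 and 182 FPKM in WT saline, 127 and 139 in Het saline and 209 and 133 in OE saline, and after APAP at 110, 105 and 83.2 in WT, 84.6, 82.0 and 52.8 in Het and 173 and 156 in OE. The WT and Het APAP libraries all lay below the lowest saline library, and both OE APAP libraries lay within the saline range. Averaged differences were -0.49 for Sdhb (adjusted p = 0.041), -0.50 for the flavoprotein Sdha (adjusted p = 0.024), and -0.56 for each of the membrane anchors Sdhc (adjusted p = 0.017) and Sdhd (adjusted p = 0.011). After quantile normalisation none of the 4 was called (median -0.24).

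In complex III, the Rieske iron-sulfur protein Uqcrfs1 (ENSMUSG00000038462, chr13:30540308-30545362, minus strand) was at 130, 132 and 137 FPKM in WT saline, 134 and 140 in Het saline and 146 and 127 in OE saline. After APAP it was at 95.7, 89.5 and 73.4 in WT, 71.8, 72.3 and 60.5 in Het and 148 and 109 in OE. The highest WT or Het APAP value, 95.7, lay below the lowest saline value. Uqcrfs1 fell by 0.59 (adjusted p = 0.0051), and of the core proteins of the complex Uqcrc1 fell by 0.56 (adjusted p = 0.0053) and Uqcrc2 by 0.42 (adjusted p = 0.039).

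In complex IV, cytochrome c oxidase, Cox8a (-0.54, adjusted p = 0.0089) and Cox5b (-0.48, adjusted p = 0.020) had the smallest p. Cox5b was at 346, 385 and 334 FPKM in WT saline, 339 and 320 in Het saline and 401 and 308 in OE saline, against 217, 213 and 186 in WT APAP, 233, 168 and 156 in Het APAP and 357 and 305 in OE APAP. WT and Het APAP lay below every saline library, OE APAP 1 lay within the saline range and OE APAP 2 just below it. Cox5a (-0.41), Cox6a1 (-0.39) and Cox7a2l (-0.38) also fell, while Cox4i1 (-0.21, adjusted p = 0.35), Cox6b1 (-0.37, adjusted p = 0.060), Cox7a2 (-0.16, adjusted p = 0.61), Cox7a1 (-0.23, adjusted p = 0.70) and Ndufa4 (-0.32, adjusted p = 0.15) did not pass. Cox7a2 turned to 0.030 under quantile normalisation, and Cox7a1 to 0.15 without Het APAP 1.

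Ndufa4l2, a paralog of Ndufa4 known as a hypoxia-responsive gene, had the highest averaged value, 0.28 (SE 0.29, adjusted p = 0.54). It was between 0.258 and 1.16 FPKM in the saline groups, at 0.623, 0.240 and 1.25 in WT APAP and at 0.938, 2.85 and 4.32 in Het APAP. In OE APAP 1 it was listed at 0, and in OE APAP 2 it was at 1.0. The 2 highest of all libraries were thus Het APAP 2 and 3, but the third Het library lay within the saline range. With a saline mean of 0.693 FPKM, Ndufa4l2 passed the limit of 1 FPKM only through those 2 libraries. Its high level in Het APAP, and its differences from Het APAP in the comparisons below, are therefore partly set by the selection. Without OE APAP 2 the averaged value turned to -0.044, and without Het APAP 1 it was 0.70.

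In complex V, the catalytic pair Atp5a1 (-0.59, adjusted p = 0.018) and Atp5b (-0.53, adjusted p = 0.022) fell, with Atp5c1 (-0.45, adjusted p = 0.036) and Atp5d (-0.42, adjusted p = 0.028) of the rotating part of the head. Atp5b was at 807, 765 and 723 FPKM in WT saline, 739 and 748 in Het saline and 833 and 734 in OE saline, and after APAP at 520, 498 and 400 in WT, 492, 350 and 351 in Het and 811 and 628 in OE. No WT or Het APAP library reached the saline range, and of the OE APAP libraries the first did. The small subunit Atp5e was the exception in the head: its averaged value was 0.02 (adjusted p = 0.97), with 1 library, Het APAP 2, at 580 FPKM and the other APAP libraries at 200 mg/kg between 224 and 385. Of the subunit c genes, Atp5g3 fell by 0.61 (adjusted p = 0.012), while Atp5g2 (-0.15, adjusted p = 0.30, and 0.12 under quantile normalisation) and Atp5g1 (0.03, adjusted p = 0.89) did not pass.

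**Figure D2:**
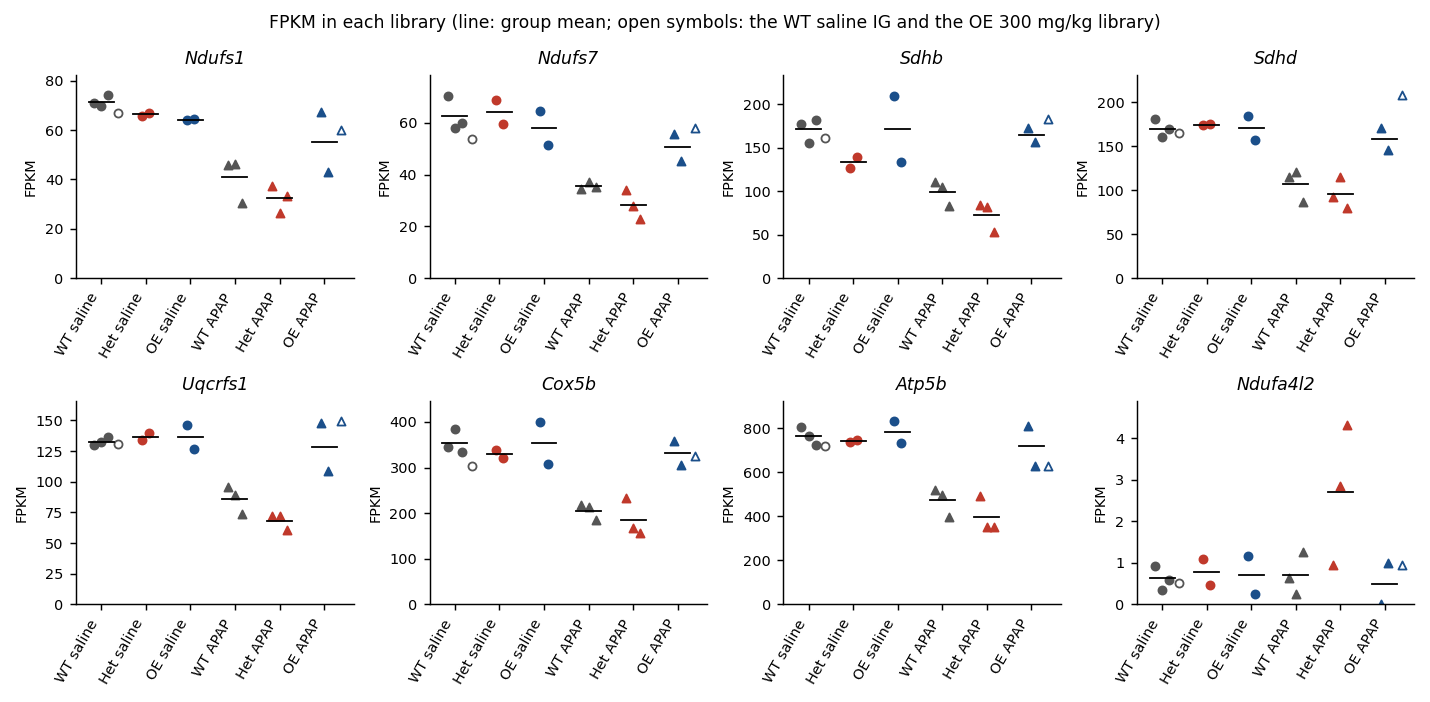
FPKM (vertical axis) of 8 genes in each library by group, with lines at group means; circles are saline, triangles APAP, and open symbols are the WT saline IG and the OE 300 mg/kg library. For 7 of the genes all WT and Het APAP libraries lie below the saline libraries, and for Sdhb both OE APAP libraries (173 and 156 FPKM) lie within the saline range; Ndufa4l2 is highest in Het APAP, at 2.85 and 4.32.

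Nuclear respiratory factor 1 (Nrf1), the Ets factor Gabpa, Yy1 and the nuclear receptor Esrra are known to act at promoters of respiratory chain genes, so the promoters were searched for 1 exact motif of each, on both strands: GCATGCGC for Nrf1, CCGGAAGT for Gabpa, AAGATGGCG for Yy1 and TCAAGGTCA for Esrra. RefSeq (GRCm38.p6) gave 78 promoters of 300 bases, from 250 before to 50 after the start, for 73 of the 87 genes. The Nrf1 motif was present in 15.4% of them against 3.67% of the 19956 promoters of coding genes and 2.71% of all 32851, and the Yy1 motif in 10.3% against 1.93% and 1.40%. The Gabpa motif was present in 6.41% against 5.39% of coding and 3.89% of all promoters, and the Esrra motif in 2.56% against 0.331% and 0.423%. Of the 12 genes with the Nrf1 motif, 5 were called lower after APAP (median -0.30), and of the 61 without it, 27 (median -0.34). The corresponding counts were 2 of 8 with the Yy1 motif and 30 of 65 without, 2 of 5 and 30 of 68 for Gabpa, and 2 of 2 and 30 of 71 for Esrra, the 2 being Sdhd and Atp5g3. A match describes the letters and not a bound site.

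The windows below show the motif in genes with a called fall from complexes I, II, IV and V and in 1 gene without a call, 5′ to 3′ on the gene's strand, with up to 40 bases on each side and the motif in capitals. They are Ndufaf4 (chr4:24897930-24898019, plus), Ndufa6 (chr15:82354327-82354414, minus), Sdhb (chr4:140961177-140961264, plus), Cox6a1 (chr5:115349071-115349160, minus), Atp5l (chr9:44920935-44920992, minus) and, for the Esrra motif, Atp5g3 (chr2:73911330-73911418, minus, where the motif lies on the opposite strand and reads TGACCTTGA on the gene's strand). In Ndufaf4 and Cox6a1 the capitals GCGCATGCGC hold overlapping matches on both strands.
Ndufaf4: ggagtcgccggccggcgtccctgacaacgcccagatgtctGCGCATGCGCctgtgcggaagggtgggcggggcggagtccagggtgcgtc
Ndufa6: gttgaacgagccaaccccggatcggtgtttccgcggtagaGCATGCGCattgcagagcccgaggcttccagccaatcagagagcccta
Sdhb: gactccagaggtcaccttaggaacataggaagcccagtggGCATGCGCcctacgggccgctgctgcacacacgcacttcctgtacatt
Cox6a1: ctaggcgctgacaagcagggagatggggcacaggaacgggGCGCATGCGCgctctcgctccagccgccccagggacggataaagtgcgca
Atp5l: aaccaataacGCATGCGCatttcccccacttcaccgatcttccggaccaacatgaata
Atp5g3: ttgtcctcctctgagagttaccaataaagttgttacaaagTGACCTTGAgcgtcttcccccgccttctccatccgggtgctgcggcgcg
The averaged value of Atp5l was -0.18 (adjusted p = 0.50) and that of Ndufa6 -0.47 (adjusted p = 0.027), with the same 8 letters in both promoters.

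In WT livers alone, 6 of 87 subunits were called lower after APAP and 0 higher; lower calls made up 3.55% of all genes tested. The 6 were the core subunits Ndufs3 (-0.71, SE 0.16, adjusted p = 0.021), Ndufs7 (-0.69, adjusted p = 0.046) and Ndufs1 (-0.86, adjusted p = 0.049), the accessory subunit Ndufb3 (-0.70, adjusted p = 0.031), the assembly factor Ndufaf1 (-0.76, adjusted p = 0.049) and Uqcrc1 of complex III (-0.74, adjusted p = 0.033). Ndufs3, a core subunit of the arm of complex I that leads to ubiquinone, was at 98.1, 94.2 and 102 FPKM in WT saline and at 62.4, 60.1 and 53.4 in WT APAP. The groups did not overlap, and APAP livers kept 59.8% of the saline mean.

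The small number of calls in WT stood beside a shift of nearly every gene: 86 of 87 values lay below 0, with a median of -0.46 against -0.27 for the 1155 other abundant genes, and 47 had an unadjusted p under 0.05. Counts of unadjusted p, here and below, are not calls. The matching number for all genes is given for the OE response alone, so the other counts cannot be set against a general share. For 78 of the 87 every WT APAP library lay below every WT saline library, which held for 21.7% of all genes tested. The exceptions were Atp5e, Atp5j, Atp5s, Ndufa4l2, Ndufa8, Ndufab1, Ndufaf5, Ndufaf8 and Uqcrq. Within non-perfused livers (3 APAP libraries against 1 saline library) the median was -0.52. The count of 6 ranged from 0 to 3 without any 1 of WT saline 1 to 3, Het saline 1 or 2, OE saline 1 or 2, WT APAP 2 or 3 or OE APAP 1 or 2, and was 12 without Het APAP 1 and 13 without Het APAP 2. It was 28 without the perfusion term and 0 after quantile normalisation or with equal summed FPKM; the latter moved the median of all genes to 0.19 and that of the subunits to -0.20, while quantile normalisation gave the subunits a median of -0.19.

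In the libraries labelled Het, 27 of 87 subunits were called lower and 1 higher, against 13.1% lower and 9.04% higher among all genes tested. The largest fall in the fit with the perfusion term was that of Ndufaf4, -1.51 (SE 0.32, adjusted p = 0.0070). The smallest p was that of Ndufs7, -1.07 (SE 0.20, adjusted p = 0.0035), followed by Uqcrfs1 at -1.02 (SE 0.20, adjusted p = 0.0051). Mean FPKM after APAP was 44.7% of saline for Ndufaf4, 44.0% for Ndufs7, 49.9% for Uqcrfs1 and 48.6% for Ndufs1. By mean FPKM, which holds no perfusion term, Ndufaf4 thus fell slightly less than Ndufs7. Of complex II, 3 of 4 genes fell (median -0.87), with Sdhb at -0.77 (adjusted p = 0.054). Of the F1 head 3 of 5 fell (median -0.78), of the complex I core 4 of 7 (median -0.63), of complex III 3 of 8 (median -0.64), of complex IV 3 of 14 (median -0.37) and of the stalk and membrane part of complex V 2 of 12 (median -0.29). The 1 gene that rose was Ndufaf5, at 3.94 and 4.43 FPKM in Het saline and 5.82, 7.82 and 6.09 in Het APAP, a difference of 0.64 (SE 0.21, adjusted p = 0.048). No subunit was called higher after quantile normalisation, without the filter on low values or without the perfusion term, while 1 was with equal summed FPKM.

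The median of the 87 in Het was -0.44, against -0.37 for the 1155 other abundant genes, of which 33.6% were called lower. All Het APAP libraries lay below all Het saline libraries for 55 of the 87, and for 33.2% of all genes tested. Within the lane tag L008 (1 APAP library against 2 saline libraries) the median was -0.53. The number of calls was 2 without Het saline 2 and 3 without Het saline 1. It was 5 after quantile normalisation, with the median at -0.15 and 61 values below 0, and 7 with equal summed FPKM, with the median at -0.33. All 5 were lower, as were 6 of the 7. Lower calls made up 10.1% and 6.04% of all genes tested in these 2 settings.

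Het APAP 2 stood apart from the other WT and Het APAP libraries in the make-up of the shift. Relative to the WT saline mean, its complex IV genes had a median of 0.03, against -0.60 and -0.64 in Het APAP 1 and 3, while its complex II genes were at -1.02 and its F1 head genes at -1.12. In this library 25 of the 87 genes lay above the WT saline mean, compared with 0 to 3 in each of the other WT and Het APAP libraries. Cox6c, for example, was at 257, 544 and 274 FPKM in the Het APAP libraries. The genes with transcripts at or above the median length of 710 bases had a median of -0.49 there and the shorter ones -0.17, and across the 87 genes value and length had a Spearman rho of -0.41 in this library, given as a description. The rho was -0.33 in OE APAP 2, -0.26 in OE saline 1, -0.24 in WT APAP 3 and -0.25 in Het APAP 3, and the value of Het APAP 2 was the lowest of the 17. Across the 87 genes the rho with length was -0.33 for the Het response and 0.39 for OE minus Het after APAP. The part of transcript length in these values was not tested.

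**Figure D3:**
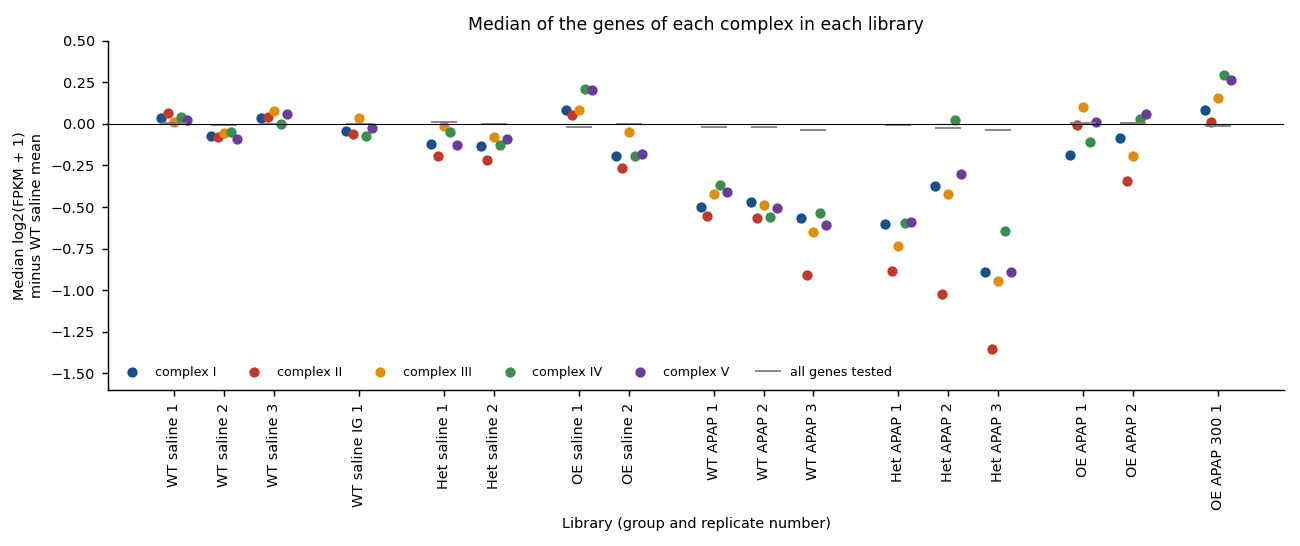
Median log2(FPKM + 1) of the genes of each complex in each library, relative to the WT saline mean (vertical axis, log2), with the median of all genes tested as a grey bar. Of the 5 complexes, complex II is lowest in every WT APAP and Het APAP library, down to -1.35, Het APAP 2 has complex IV at 0.03, and OE APAP lies between -0.34 and 0.10.

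In OE livers no subunit was called after APAP, and 0% of all genes tested were, by limma, with 533 genes at an unadjusted p under 0.05. Among the subunits 1 had such a p, Ndufaf3 at -0.56 (adjusted p = 0.93), followed by Ndufv3 at -0.43, and on the higher side Atp5g1 (0.21) and Ndufaf6 (0.17) came first. The median of the 87 was -0.06, with 66 values below 0, but its direction turned with the scaling: it was 0.025 after quantile normalisation and 0.026 with equal summed FPKM, each with 33 values below 0, and 0.028 with the 300 mg/kg library counted in. Mean FPKM after APAP was 96.2% of saline for Sdhb, 94.0% for Uqcrfs1, 91.8% for Atp5b, 87.2% for Ndufs7 and 85.7% for Ndufs1. Both OE APAP libraries lay below both OE saline libraries for 9 of the 87, and for 10.6% of all genes tested. With 2 libraries a side, the lane tags gave opposite signs. Within L004 the median was 0.11 with 65 values above 0, and within L008 it was -0.21 with 83 values below 0. The L004 libraries were also non-perfused and the L008 ones perfused, so lane and perfusion cannot be told apart here. The median was -0.25 without OE saline 2. The 95% interval of the OE response ran from -0.79 to 0.28 for Ndufs1 and from -0.62 to 0.23 for Ndufs7.

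**Figure D4:**
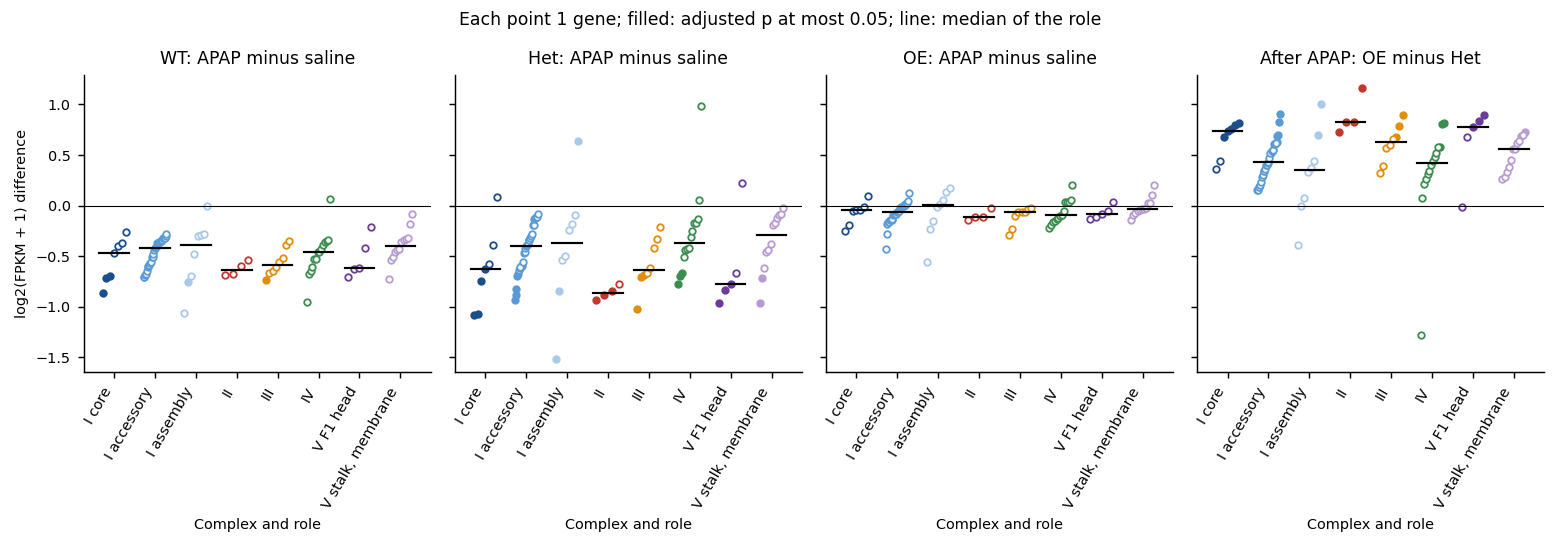
Log2(FPKM + 1) differences of the 87 genes by complex and role for the APAP responses in WT, Het and OE and for OE minus Het after APAP; each point is 1 gene, lines are medians and filled points have an adjusted p of at most 0.05. WT and Het points lie mostly below 0 (medians -0.46 and -0.44), OE points around 0 (median -0.06), and OE minus Het points above 0 (median 0.52).

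After APAP, OE livers were compared with Het livers directly. Higher expression in OE was called for 29 of 87 subunits and lower for 0, and higher calls made up 8.72% of all genes tested. All 4 complex II genes were higher: Sdhb by 1.16 (SE 0.24, adjusted p = 0.012), or 2.25 times in mean FPKM, Sdha and Sdhc each by 0.83 (adjusted p = 0.027 and 0.031) and Sdhd by 0.73 (adjusted p = 0.037). Of the complex I core 5 of 7 were higher, led by Ndufs3 (0.75, SE 0.15, adjusted p = 0.011) and Ndufv1 (0.82, adjusted p = 0.012). The calls also held 7 of 29 accessory subunits, 2 of 8 assembly factors, 3 of 8 genes of complex III, with Uqcrfs1 at 0.90 (adjusted p = 0.012), 3 of 14 of complex IV, 3 of 5 of the F1 head and 2 of 12 of its stalk and membrane part.

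The median of the 87 was 0.52, against 0.31 for the 1155 other abundant genes, of which 27.5% were called higher. Every OE APAP library exceeded every Het APAP library for 48 of the 87, and for 23.3% of all genes tested. The median was 0.54 both within lane tag L008 (1 OE against 1 Het library) and within non-perfused livers (1 against 2). The non-perfused OE library carries L004 and the 2 Het libraries L005, so that value cannot be told apart from a lane difference. Ndufa4l2 (-1.28, adjusted p = 0.081) and Ndufaf5 (-0.38, adjusted p = 0.20) had the opposite sign. With lane in place of perfusion in the fit no subunit was called, at a median of 0.62, and none was with the 2 groups fitted alone, at a median of 0.53. The 29 calls were 0 without OE APAP 1, 5 without Het APAP 3 and 18 or 19 without WT saline 1, WT saline 2, Het saline 1 or Het saline 2. With quantile normalisation 6 and with equal summed FPKM 4 were called, all higher, at medians of 0.28 and 0.42. Of the 11101 genes tested, 1262 and 818 were called in either direction in these settings. Lower calls made up 5.5% and 4.24% of all genes. The share of subunits called higher was then near that of all genes.

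OE and WT after APAP differed in the same direction without calls. None of the 87 was called, against 0.00901% of all genes tested, while 30 had an unadjusted p under 0.05, all higher in OE. The median was 0.42, with 84 values above 0, and dropped to 0.25 after quantile normalisation and 0.21 with equal summed FPKM. The smallest p were those of Ndufaf4 (1.21, adjusted p = 0.12) and Cox7a2l (0.61, adjusted p = 0.14). On the lower side, Ndufa4l2 (-0.24, adjusted p = 0.83) and Ndufaf5 (-0.06, adjusted p = 0.90) had the smallest p. Every OE APAP library exceeded every WT APAP library for 60 of the 87, and for 16.1% of all genes tested. In non-perfused livers (1 against 3) the median was 0.39. All 3 WT APAP libraries carry L005, while the OE APAP libraries carry L004 or L008. The values of this comparison can therefore not be told apart from a lane difference. Without OE APAP 2, 1 subunit was called.

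Het and WT after APAP gave 0 calls among the 87 (0.054% of all genes tested) and 9 unadjusted p under 0.05. The median was -0.12, and complex II stood lowest at -0.51. Atp5d (-0.61, adjusted p = 0.094) and Sdha (-0.61, adjusted p = 0.13) had the smallest p on the lower side, Ndufa4l2 (1.03, adjusted p = 0.20) and Ndufaf5 (0.32, adjusted p = 0.35) on the higher side. Sdha was at 111, 101 and 78.0 FPKM in WT APAP and 80.6, 50.8 and 61.5 in Het APAP, so the groups overlapped in 1 library on each side. Without WT APAP 3 there were 3 calls and without Het APAP 1 there were 2, and within lane tag L005 the median was -0.13.

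Under saline no subunit differed by the test in any pair of genotypes. The share of all genes called was 0.036% for Het minus WT, 0.036% for OE minus WT and 0.00901% for OE minus Het. Het minus WT had a median of -0.13 with 75 of 87 values below 0 and 4 unadjusted p under 0.05. Those with the smallest p were Atp5g2 (-0.47, adjusted p = 0.29) and Ndufs8 (-0.63, adjusted p = 0.33) on the lower side and Ndufaf4 (0.67, adjusted p = 0.41) and Atp5s (0.18, adjusted p = 0.82) on the higher side. Within perfused livers that median was -0.10. OE minus WT had a median of -0.01 and OE minus Het one of 0.10, each with 0 unadjusted p under 0.05. OE minus WT was 0.12 within perfused livers (1 against 2 libraries) and -0.22 within non-perfused livers (1 against 1). The perfused OE library carries L008 and the non-perfused one L004. No WT saline library shares a lane tag with a Het or OE saline library. The turn of sign can therefore not be told apart from a difference of lane or of single libraries. OE minus Het was 0.28 within perfused livers (1 against 2). In OE minus WT the smallest p belonged to Ndufaf1 (-0.34, adjusted p = 0.91) and Ndufaf7 (-0.26) on the lower side and to Atp5s (0.40, adjusted p = 0.92) and Atp5h (0.25) on the higher side, and in OE minus Het to Ndufaf4 (-0.57, adjusted p = 0.98) and Ndufa12 (-0.15) and to Ndufs8 (0.46, adjusted p = 0.96) and Ndufaf3 (0.39).

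Whether the responses themselves differed between genotypes was tested as an interaction. No subunit was called for Het against WT (0% of all genes tested), for OE against WT (0%) or for OE against Het (0.018%). The OE response was less negative than the WT response for 86 of the 87 genes, with a median difference of 0.41 and 5 unadjusted p under 0.05, led by Ndufs3 (0.67, SE 0.23, adjusted p = 0.81) and Ndufaf4 (1.11, adjusted p = 0.81). Against the Het response the median was 0.36 with 16 unadjusted p under 0.05, led by Ndufaf4 (1.57, SE 0.45, adjusted p = 0.12) and Uqcrfs1 (0.92, SE 0.29, adjusted p = 0.13). The value of Ndufa4l2 was negative in both, -0.29 and -1.21, and that of Ndufaf5 was -0.51 in the second. After quantile normalisation those medians were 0.21 and 0.19, with equal summed FPKM 0.24 and 0.35, and without OE saline 1 they were 0.62 and 0.67. Without OE APAP 2 there was 1 call against the Het response. The Het and WT responses had a median difference of 0.00, with Ndufaf5 (0.65, adjusted p = 0.60) alone at an unadjusted p under 0.05 Ndufa4l2 next (0.92), and Ndufs7 (-0.38, adjusted p = 0.67) and Uqcrfs1 (-0.37) first on the lower side. The 3 comparisons share libraries and are not independent.

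Other genes of the same machinery were read in the averaged response from lists drawn up with earlier results of these data known, beside the 13.3% of all genes tested that were called lower. Of 39 assembly factors outside the symbols above 10 fell and 0 rose (median -0.28), such as Uqcc1 of complex III (-0.53, adjusted p = 0.0063) and Ecsit of complex I (-0.41, adjusted p = 0.017). Of 21 electron carriers and enzymes that feed the chain 11 fell, led by proline dehydrogenase Prodh (-1.93, adjusted p = 0.00014) and Etfdh, which passes electrons of fatty acid oxidation to ubiquinone (-1.12, adjusted p = 0.0013). Of 13 tricarboxylic acid cycle genes 8 fell (median -0.51), including Idh3b of isocitrate dehydrogenase (-0.52, adjusted p = 0.0063) and Dlst of the oxoglutarate dehydrogenase complex (-0.58, adjusted p = 0.0076). Their summed level was 854 to 892 FPKM in WT saline, 844 to 864 in Het saline and 953 to 1022 in OE saline, and after APAP it was 536 to 693 in WT, 460 to 576 in Het and 890 to 1053 in OE. OE lay above both other genotypes under saline as well as after APAP.

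Of 16 tested regulators of mitochondrial biogenesis 2 fell, a share near that of all genes: Esrra (-0.72, adjusted p = 0.0094) and Polg2 (-0.44, adjusted p = 0.034), while Tfam, which packs and transcribes mitochondrial DNA, was at -0.23 (adjusted p = 0.23). Of 78 mitochondrial ribosome genes 10 fell and 0 rose (median -0.10), again near the share of all genes. Of 24 genes of the mitochondrial membranes, import and chaperones 9 fell, among them the outer membrane channel Vdac1 (-0.62, adjusted p = 0.0040), and 1 rose. Of 6 tested genes of a list of uncoupling, inhibitor and related proteins 2 fell, Aifm2 (-0.70, adjusted p = 0.0014) and Aifm1 (-0.54, adjusted p = 0.017). Neither of these 2 is an uncoupling protein or an inhibitor of the chain. None of the 8 tested protein genes of the mitochondrial genome was called (median -0.23), with mt-Co2 at -0.50 (adjusted p = 0.069); the other 5 of 13 were not tested, and all 5 were listed at 0 throughout WT saline and Het APAP.

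Markers of liver cell types moved in the same comparisons. In the averaged response 2561 of all 11101 genes tested were called, 1474 of them lower and the rest higher. The summed level of 9 hepatocyte genes was 24590 to 26013 FPKM in WT saline, 24759 to 26307 in Het saline, 21184 to 27820 in OE saline, 13077 to 18540 in WT APAP, 10965 to 14987 in Het APAP and 20446 to 22969 in OE APAP, and 3 of the 9 fell in the averaged response. Of 7 tested pericentral hepatocyte genes 6 fell (median -2.19), and the sum of the 8 listed was 3059 to 3092 FPKM in WT saline, 4076 to 4183 in Het saline, 1273 to 5016 in OE saline, 399 to 1087 in WT APAP, 167 to 625 in Het APAP and 801 to 1427 in OE APAP. Of 7 periportal genes 2 fell, at a list median of 0.26, and 4 were higher in OE than in Het after APAP (list median 1.73), as were 8.72% of all genes. Their sum was 1265 to 1427 FPKM in WT saline, 749 to 1612 in Het saline, 757 to 1846 in OE saline, 750 to 1234 in WT APAP, 622 to 872 in Het APAP and 1400 to 2170 in OE APAP. Of 11 tested monocyte and macrophage genes 7 rose, and the sum of the 12 listed was 103 to 142 FPKM in WT saline, 122 to 179 in Het saline, 77.6 to 177 in OE saline, 130 to 489 in WT APAP, 352 to 543 in Het APAP and 94.5 to 217 in OE APAP, and 3 of 4 neutrophil genes rose, Ly6g being listed at 0 in every saline library. Of 9 stellate cell and matrix genes 5 rose, of 2 cholangiocyte genes 1 rose, of 8 Kupffer cell genes 0 were called, of 8 endothelial genes 1 fell and of 5 erythroid genes 1 fell. Fewer hepatocytes and less RNA of these genes per hepatocyte cannot be told apart in whole liver, and the part of cell make-up in the subunit values was not tested.

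**Figure D5:**
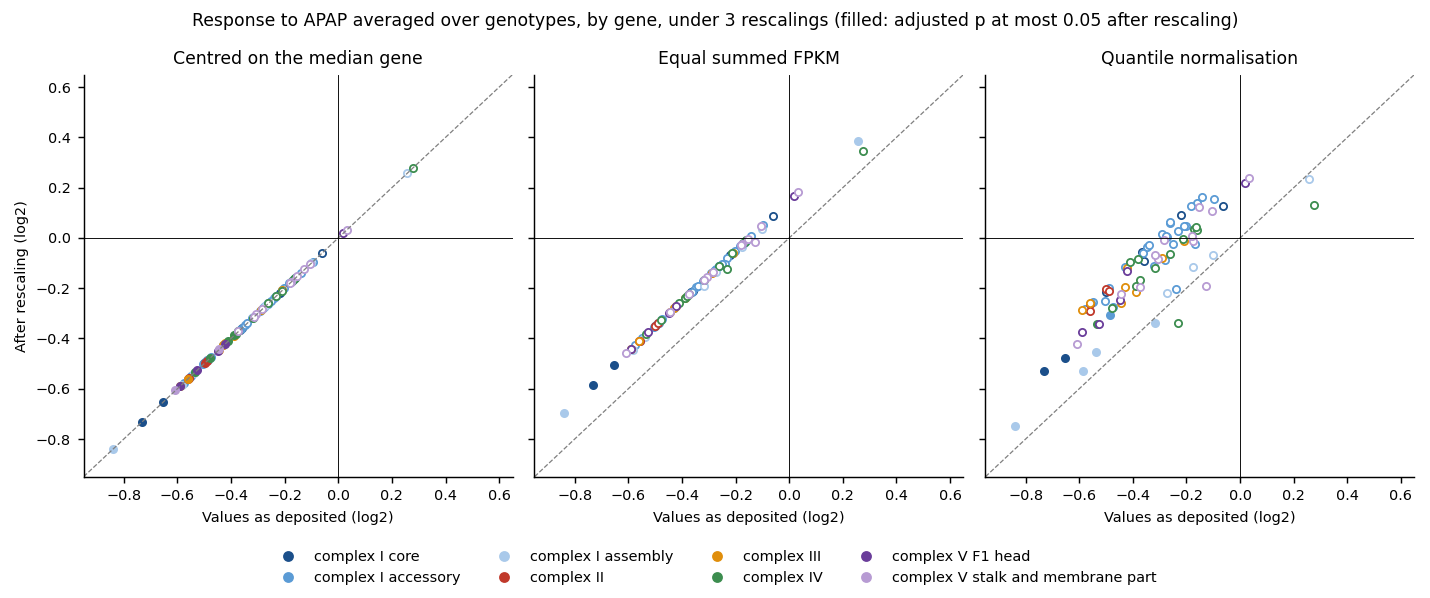
Averaged APAP response of each of the 87 genes with values as deposited (horizontal axis, log2) against the same after 3 rescalings (vertical axis, log2); the dashed line marks equality and filled points have an adjusted p of at most 0.05 after rescaling. Centring each library on its median gene leaves 38 calls, equal summed FPKM leaves 3 lower and 1 higher (Ndufaf5, 0.39), and quantile normalisation leaves 8, with most points above the dashed line.

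Which calls remained depended on the rescaling. Ndufs7, Ndufs1 and Ndufaf4 were called lower in the averaged response with values as deposited, after equal summed FPKM and after quantile normalisation. Under quantile normalisation Ndufaf3, Ndufaf1, Ndufaf7, Ndufb3 and Cox8a were also called, so that 7 of the 8 calls were genes of complex I, 4 of them assembly factors. Quantile normalisation hardly moved the median of the assembly factors, from -0.295 to -0.280. The median of the more abundant accessory subunits went from -0.282 to -0.027. Ndufaf5 was called higher only with equal summed FPKM (0.39, adjusted p = 0.046).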

How the data were processed

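Total RNA of 17 livers was sequenced as paired ends with a stranded kit, per the labels' protocols. Per the submitters' processing notes, bcl2fastq 2.17.1.14, TopHat2 2.0.9, Cufflinks 2.2.1, Cuffdiff and build GRCm38.p5 were used. The deposited table by the authors holds FPKM per gene, so read depth is unknown. Ensembl gene IDs took symbols from GENCODE vM21 (GRCm38), 934 of 46073 without one. Genes listed at 0 throughout a genotype and drug group but averaging 10 FPKM or more elsewhere (89, with 7 neighbours, none a subunit) were left out, and the 11101 remaining genes whose mean reached 1 FPKM were tested on log2(FPKM + 1) with limma 3.58.1 in R 4.3.3 (8 groups and a perfusion term, trend and robust variance, 8 residual degrees of freedom, Benjamini-Hochberg adjustment, false discovery rate 0.05). The fit was tested on simulated data. Subunits and gene lists were chosen with earlier results of these data known. Named by rule were redox-centre and catalytic subunits, alternative forms, genes with the smallest p in each direction and those at the abundance limit; Cox6c, Ndufa6, Ndufa9, Ndufa10, Ndufb4 and Atp5l were named after their values were seen. Single values of 2 genes, 1 of them a subunit, are not reported here, although counts and medians include them.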

Additional observations from a re-analysis of the deposited data

How the results depend on the processing

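No paired analysis was possible because the replicate numbers follow accession order and pair no samples. Read depth is unknown, and 2 or 3 libraries a group limit the precision. Called subunits numbered as follows. For the averaged response (38 of 87) the count was 25 with no filter on low values, 8 with quantile normalisation and 4 with equal summed FPKM, and 2 to 47 when 1 library was left out. For WT (6) it was 0, 0 and 0 in those settings, 28 without the perfusion term, 24 with the single-library labels pooled into their groups, 0 with the compared groups alone, 11 with array weights, 1 without the L004 pair of OE libraries and 0 to 13 with 1 library left out. For Het (28) it was 18, 5 and 7, then 3 with lane in place of perfusion, 1 with the groups alone, 49 with array weights, 16 without the L004 pair and 2 to 40 with 1 library left out. For OE minus Het after APAP (29) it was 13, 6 and 4, then 0 with lane, 48 with pooled labels, 0 with the groups alone, 45 with array weights, 0 without the L004 pair and 0 to 35 with 1 library left out. Het minus WT after APAP (0) gave 3 with lane, 14 with array weights and 0 to 3 with 1 library left out; OE minus WT after APAP and the OE minus Het response (0 each) gave 0 to 1, and Het minus WT under saline (0) gave 5 with array weights. For OE after APAP, and for the other saline and response comparisons, the count was 0 in every setting run. With lane in place of perfusion, the averaged and WT responses, the saline comparisons with WT and the Het and OE minus WT responses could not be estimated. Leaving out the L004 pair and centring on the median gene were chosen for these comparisons after seeing the data, except the pair for the averaged response; so were the values within non-perfused livers for WT and for OE minus WT. Over all 87 subunits, the sign of the averaged response turned for 20 with quantile normalisation and 5 with equal summed FPKM, none of them called. Of those named in the text, Ndufs8 turned to 0.13 and 0.086, Ndufb4 to 0.15 and 0.053 (0.014 with pooled labels), and Ndufv2, Cox7a2 and Atp5g2 to 0.091, 0.030 and 0.12 with quantile normalisation. Atp5e turned to -0.022 and Atp5g1 to -0.11 without the perfusion term, to -0.35 and -0.069 without the L004 pair, and Atp5e to -0.054 with array weights. With 1 library left out the range was -0.22 to 0.043 for Ndufs8, -0.044 to 0.70 for Ndufa4l2, -0.35 to 0.30 for Atp5e, -0.069 to 0.19 for Atp5g1, -0.83 to 0.15 for Cox7a1, -0.38 to 0.029 for Cox7a2 and -0.21 to 0.033 for Ndufb4. The cause was not tested. These tallies follow 115 results for single subunits, the calls of each comparison and 52 in the averaged response, not all 87 in every comparison: over all settings 2031 kept their direction and side of the threshold, 870 fell short of it in the same direction, 5 newly passed it and 26 turned sign.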

Other observations

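The 1 OE library at 300 mg/kg, which has no replicate, did not lie below the OE libraries at 200 mg/kg. Relative to the WT saline mean, the median of the 87 subunits in it was 0.17, with complex II at 0.01, complex III at 0.16, complex IV at 0.30 and complex V at 0.27, while its complex I assembly factors stood at -0.18 and its F1 head genes at -0.20. Ndufa4 was at 866 FPKM there, above its value in each of the other 16 libraries, and Ndufaf6 was at 28.6 FPKM against 6.51 to 16.8 in the others. The summed FPKM of this library was also the highest of the 17. With every library brought to the same summed FPKM its subunit median was -0.17, so its position depended on the scaling.

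The WT saline library labelled IG had a subunit median of -0.04 relative to the WT saline mean, within the -0.07 to 0.04 of the 3 WT saline libraries themselves.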
